A study of Mus musculus with 2 samples.

Results

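The genes examined here make cholesterol, fatty acids and triglycerides, and store or release them. They are 39 genes named by symbol for these functions, and all 39 had a row among the 19829 genes of the deposited table. RNA was taken from the left kidney of male mice after acute kidney injury (AKI). WT+AKI was a wild-type control mouse on the C57BL/6 background and TG+AKI a mouse carrying an *Inmt* transgene that is expressed in proximal tubules, *Inmt* being the gene of the indole-methylating enzyme indolethylamine N-methyltransferase. Per the methods, voclosporin, a calcineurin inhibitor, was injected into both mice at a daily dose of 30 mg/kg between 8 and 10 weeks of age. Both kidneys of each mouse were then made ischemic for 30 min and reperfused at 14 weeks. The time of kidney collection after reperfusion is given as 24 h in a legend and as 48 h in the methods. The sample labels state no treatment, and the label of the transgenic kidney also calls that animal a conditional knockout, so drug and allele rest on the series design and the methods. No promoter is named for the transgene in the methods used here, and no uninjured or untreated kidney was analysed here.

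Each group was 1 library, with 38542764 reads counted for WT+AKI and 36427421 for TG+AKI. No difference below has a replicate check, variation between mice was not measured, and no p-value is given for the groups. Values are normalised read counts, and every pair of values is given with WT+AKI before TG+AKI. The columns sum to 909104 and 1099980, so a value of 10 is roughly that many reads in 1000000, and which tool set the scaling is not settled by the sources. Brackets hold the 95% Clopper-Pearson interval of the ratio of TG+AKI to WT+AKI from the reads, which covers counting error only. A gene was past 2-fold when its log2(value + 1) differed by 1 or more, and genes under 10 in both libraries were not compared. The values of *Inmt* itself, 10.4 and 402.8 (ratio 38.5 [35.1 to 42.5]), went in the direction of the transgenic label. The transgenic kidney also differed in tissue state. In the deposited scaling, all 10 proximal tubule markers were past 2-fold higher in TG+AKI, with sums of 5285 and 17723, and all 9 markers of injured tubules were past 2-fold lower, with sums of 13292 and 902.1. The 9 macrophage markers summed to 194.4 and 85.5, with 6 of 8 compared past 2-fold lower. Named after their values were seen, *Csf1r* (37.5 and 43.0) and *Mrc1* (2.67 and 4.26, not compared) were higher in TG+AKI. The 7 endothelial markers summed to 452.2 and 428.2. Of other nephron segments, 3 of 5 thick ascending limb markers compared were past 2-fold higher (sums 1981 and 3313 over the 6 listed), as was 1 of 7 collecting duct markers (sums 345.0 and 458.5). Whether these shifts contribute to the differences below was not tested, and in whole-kidney RNA fewer cells of a type and less RNA per cell cannot be told apart.

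Cells build cholesterol from acetyl-CoA through the mevalonate pathway, in which HMG-CoA synthase acts early and squalene epoxidase opens the sterol branch. The transcription factors SREBP-1 and SREBP-2 (*Srebf1*, *Srebf2*) control these enzymes and those of fatty acid synthesis. When sterols are abundant, INSIG proteins hold the SREBP escort protein SCAP in the endoplasmic reticulum, and when sterols fall, SCAP carries SREBP to the Golgi, where it is cut and released. Fatty acids are made from citrate-derived acetyl-CoA, then elongated, desaturated and esterified to glycerol. The resulting triglyceride is kept in droplets coated by perilipins. Proximal tubule cells of the kidney live largely on fatty acid oxidation, and droplets are known to collect in them after injury.

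Of the 39 genes, 37 passed the value of 10, each of them in both libraries. *Mvk* (6.53 and 8.88), mevalonate kinase, and *Pmvk* (9.43 and 9.42), the kinase that follows it, did not. By the fold rule, 5 of the 37 were higher in TG+AKI, namely *Idi1*, *Lpl*, *Fads2*, *Mvd* and *Insig1*. Over all 10294 genes compared, 5.74% were higher by the same rule. Only *Plin2* of the 37 was lower by the fold rule, against 7.12% of all genes. The counting interval lay above 1 for 24 of the 37 and below 1 for 10, against 41.8% and 39.5% of all genes. At this depth most genes of the 2 libraries differed beyond counting error, so the interval alone sets few genes apart. The median log2 difference of the 37 was 0.24, and that of all genes compared 0.01. Relative to the median of all genes the lipid genes thus leaned to the higher side in the transgenic kidney, with 26 of 37 above it, and 31 of the 37 differences were under 2-fold. This lean was smaller among abundant genes. With a filter of 50 in place of 10, 13 of 22 lipid genes lay above the median of all genes, and the median of the lipid genes exceeded it by 0.07 in place of 0.23 on the log2 scale.

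These directions depend on the scaling of the libraries. Scaling both columns to the same total lowered the median of all genes by 0.27 on the log2 scale and gave a median of -0.03 for the lipid genes, but 26 of 37 remained above the median of all genes. Setting the median ratio of the genes that reach 100 in each library to 1 lowered the median of all genes by 0.14, and the lipid genes then had a median of 0.10. *Mvd* and *Insig1* were past 2-fold only in the deposited scaling and with median-of-ratios size factors. *Idi1*, *Fads2* and *Lpl* stayed past 2-fold higher and *Plin2* past 2-fold lower under each of the 4 scalings. The sign of 10 genes changed under at least 1 scaling, and these were *Pmvk*, *Fdps*, *Fdft1*, *Sqle*, *Insig2*, *Acly*, *Elovl5*, *Gpam*, *Dgat1* and *Dgat2*. For these 10 the values below carry no direction.

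**Figure D1:**
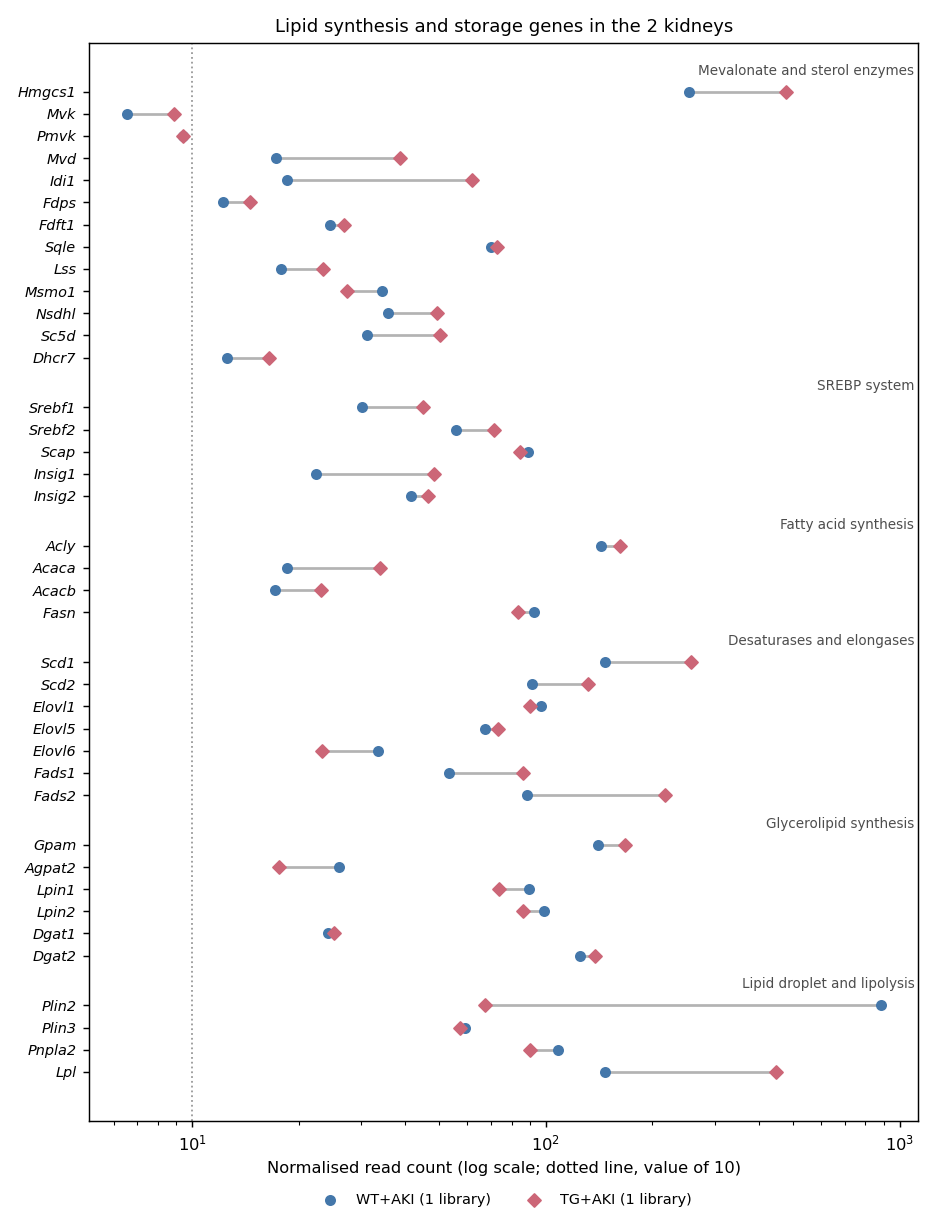
Normalised read counts of the 39 genes (x axis, log scale) by role and, for the sterol enzymes, in pathway order (y axis), with a circle for the WT+AKI library and a diamond for the TG+AKI library. The line between the symbols is longest for *Plin2*, with values of 883.9 and 67.4, and *Pmvk* is the gene whose symbols coincide.

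Among the 13 enzymes of the mevalonate and sterol pathway, 2 were past 2-fold higher in TG+AKI. Of the 11 compared, 10 had a positive log2 difference, against 51.2% of all genes compared. Of these 10, *Fdps*, *Fdft1* and *Sqle* turn negative under another scaling. The median log2 difference of the 11 was 0.38. *Hmgcs1*, which makes HMG-CoA, had values of 254.5 and 477.2, a ratio of 1.88 [1.83 to 1.92] that stayed short of 2-fold. Per kilobase of the longest annotated coding transcript it was the most abundant of the 13 in both kidneys, with 73.5 and 137.8 per kilobase. *Mvd*, which decarboxylates mevalonate diphosphate to isopentenyl diphosphate, had values of 17.3 and 38.8, a ratio of 2.25 [2.05 to 2.46]. *Idi1*, which interconverts the isoprene units isopentenyl and dimethylallyl diphosphate, had values of 18.6 (788 reads) and 61.8 (2046 reads), a ratio of 3.32 [3.06 to 3.61]. It was the largest difference of the 13, and ranked 174 from the highest of the 10294 genes. For *Idi1*, 20.0% of the 100-base words of its longest coding transcript also occur in the annotated genes *Gm13502* and *Gm35570*, so its reads may have been split and its value is uncertain to that extent. Genes on the opposite strand overlap 16.0% of the exonic bases of *Hmgcs1*, 10.7% of those of *Idi1*, 20.9% of those of *Fdft1* and 8.16% of those of *Lss*. The kit keeps the strand, but whether the counting used it is not stated, so reads of the overlapping gene may be included.

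The enzymes on the way from isoprene units to squalene and lanosterol showed smaller differences. *Fdps*, which makes farnesyl diphosphate, had values of 12.2 and 14.6, but 75.8% of its words occur in other annotated genes, which makes this level uncertain. *Fdft1*, squalene synthase, had values of 24.5 and 26.9. *Sqle*, squalene epoxidase, had values of 70.0 and 72.5, with an interval that included 1 (ratio 1.04 [0.982 to 1.09]). *Lss*, which closes the ring to lanosterol, was at 17.8 and 23.4 (ratio 1.31 [1.19 to 1.45]).

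Of the enzymes that convert lanosterol to cholesterol, *Sc5d*, lathosterol oxidase, was at 31.1 and 50.2 (ratio 1.61 [1.5 to 1.74]). *Nsdhl*, a sterol 4-alpha-carboxylate dehydrogenase, was at 35.8 and 49.4 (ratio 1.38 [1.29 to 1.48]). *Dhcr7*, the reductase of 7-dehydrocholesterol, was at 12.5 and 16.5 (ratio 1.31 [1.16 to 1.48]). *Msmo1*, the methylsterol monooxygenase that acts just before *Nsdhl*, went the other way, with values of 34.4 and 27.4, 1.26-fold lower in the transgenic kidney [1.16 to 1.37]. Adjacent steps of the branch therefore did not move as 1 block.

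The sterol enzymes outside the 39 gave a similar picture. Of 10 listed, *Faxdc2* was not analysed here and 1 stayed under 10. Of the 8 compared, 1 was past 2-fold higher and none lower, with a median of 0.30. That gene was *Cyp51*, lanosterol 14-alpha-demethylase, with values of 44.6 and 206.7 (1889 and 6844 reads), a ratio of 4.64 [4.41 to 4.88] and a larger difference than any of the 39 genes on the higher side. For sterol uptake, efflux and storage, none of 14 genes compared was past 2-fold by the log2(value + 1) rule. The nearest, named after their values were seen, were *Scarb1* and *Stard4*. *Scarb1* was at 24.5 and 12.0, with a plain ratio 2.05-fold lower [1.82 to 2.30] but a log2(value + 1) difference of -0.98. *Stard4* was at 44.8 and 88.4 (ratio 1.97 [1.86 to 2.09]).

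The promoters of the sterol genes share sequence features that the choice of genes did not use. RefSeq promoter windows (GRCm38.p6, the assembly also called mm10, which the submitters' processing notes name) were matched for 30 of the 39 genes, each window reaching from 250 bases before to 50 bases after a start site. Windows were searched on both strands for TCACNCCAC, a sterol regulatory element bound by SREBP, for CCAAT, the box bound by NF-Y, and for GGGCGG, the GC box bound by Sp1. NF-Y and Sp1 are known partners of SREBP. All 10 sterol enzymes with a window held a CCAAT box, as did 41.1% of the 27025 genes with a window, and 9 of the 10 held a GC box, as did 38.2%. Among the 13714 genes with a window and a row in the table, the shares were 42.1% and 60.8%. The exact sterol regulatory element was found in *Hmgcs1* alone of the 30 genes, and in 1.44% of all genes. These matches are letters in a window and not shown to be bound. The bases before the start site are shown for *Hmgcs1*, for *Mvd* and for *Insig1*, the SREBP-regulated gene discussed next, read 5′ to 3′ along the gene and ending before every annotated start. Capitals mark CCAAT boxes (ATTGG when on the other strand) and the sterol regulatory element.
*Hmgcs1*, chr13:119690101-119690350, + strand: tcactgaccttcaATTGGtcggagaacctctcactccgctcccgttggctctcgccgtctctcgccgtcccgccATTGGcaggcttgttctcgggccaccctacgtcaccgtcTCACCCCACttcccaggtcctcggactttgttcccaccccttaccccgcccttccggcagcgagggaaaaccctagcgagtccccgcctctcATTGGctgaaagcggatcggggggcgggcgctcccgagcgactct
*Mvd*, chr8:122443423-122443672, - strand: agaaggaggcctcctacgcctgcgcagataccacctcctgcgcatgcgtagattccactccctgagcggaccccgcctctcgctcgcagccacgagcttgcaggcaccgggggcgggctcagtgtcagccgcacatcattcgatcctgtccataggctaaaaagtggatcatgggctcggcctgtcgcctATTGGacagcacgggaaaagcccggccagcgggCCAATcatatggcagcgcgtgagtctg
*Insig1*, chr5:28071162-28071362, + strand: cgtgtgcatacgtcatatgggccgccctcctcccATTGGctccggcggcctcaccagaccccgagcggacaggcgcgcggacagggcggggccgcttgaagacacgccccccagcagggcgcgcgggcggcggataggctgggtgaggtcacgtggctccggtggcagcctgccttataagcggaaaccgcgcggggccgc
*Hmgcs1* holds 3 CCAAT boxes in this stretch, with the sterol regulatory element, 137 bases before the start site, between them. *Mvd* holds 2 and *Insig1* holds 1, 216 bases before its start site. No match overlaps a match of another motif in these stretches. These genes had ratios of 1.88, 2.25 and 2.16 between the kidneys. Of the 30 genes with a window, 23 held a CCAAT box, with ratios above and below 1. Whether the boxes bear on the differences was not tested. *Msmo1* and *Fasn*, with 3 matches each, had ratios of 0.794 and 0.903, and *Pmvk*, with 1 match, had a ratio of 0.999.

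**Figure D2:**
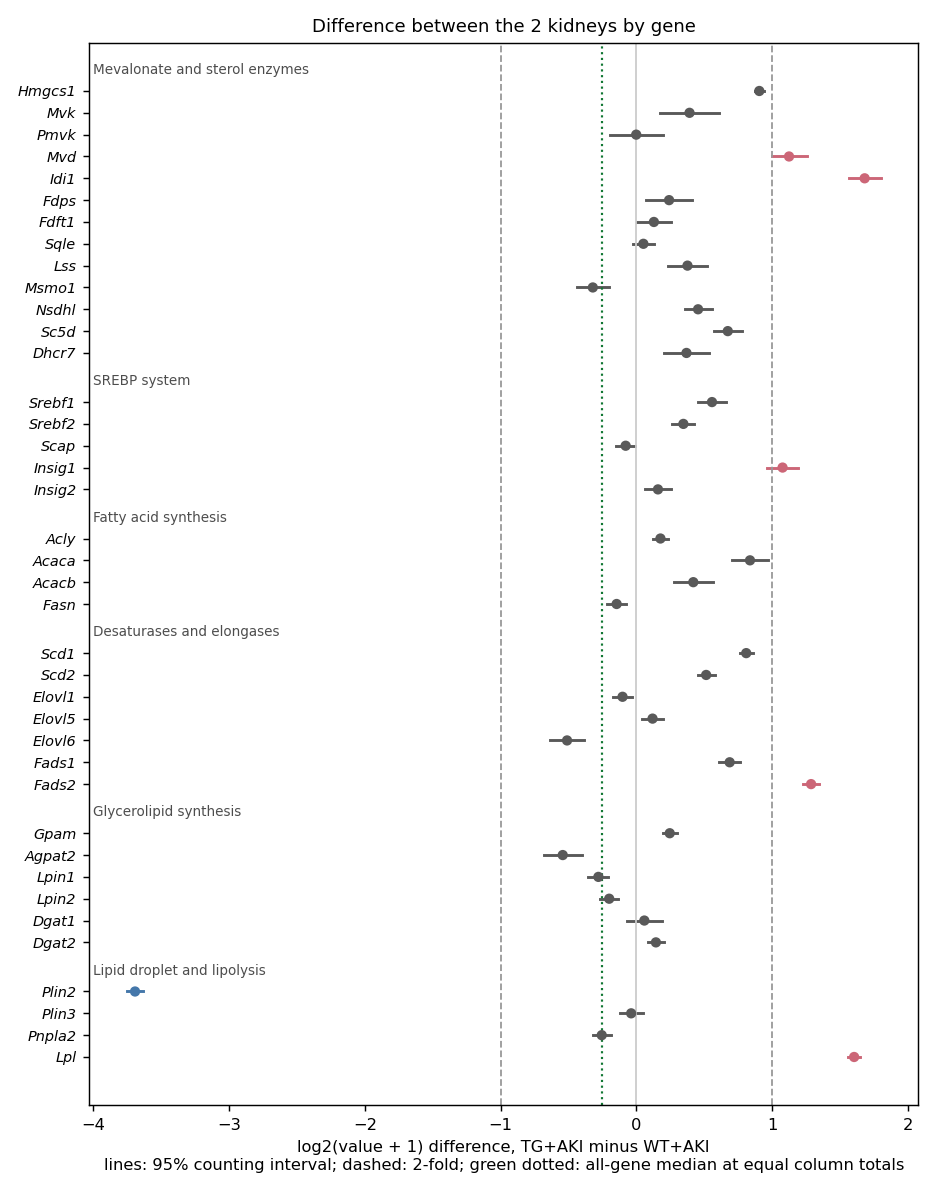
Log2(value + 1) difference, TG+AKI minus WT+AKI (x axis), of the 39 genes by role (y axis), with bars for the 95% counting interval, dashed lines at 2-fold and a green dotted line at the all-gene median of equal column totals (-0.25). The 5 genes past 2-fold higher are red and *Plin2*, at -3.69, is blue, while the other genes lie between -0.54 and 0.90.

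Among the 5 genes of the SREBP system, the feedback gene *Insig1* had the largest difference and was the sole gene past 2-fold. *Insig1*, which is itself induced by SREBP and retains SCAP in the endoplasmic reticulum, had values of 22.4 and 48.3 (950 and 1601 reads), a ratio of 2.16 [1.99 to 2.34]. Its relative *Insig2*, which does not need SREBP for its expression, had values of 41.5 and 46.4 (ratio 1.12 [1.04 to 1.2]). Per kilobase, *Insig2* was the more abundant of the pair in WT+AKI (15.4 against 8.31), and in TG+AKI the pair stood at 17.2 and 17.9. *Srebf1* was at 30.2 and 44.9 (ratio 1.49 [1.38 to 1.6]) and *Srebf2* at 55.8 and 71.2 (ratio 1.28 [1.2 to 1.35]). *Scap* was nearly level at 89.3 and 84.4 (ratio 0.946 [0.90 to 0.993]). For *Scap*, 18.6% of the exonic bases lie opposite an antisense gene, and whether the counting used the strand is not stated. SREBP activity is set by cleavage of the protein and was not measured by these transcripts.

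Genes of fatty acid synthesis showed no member past 2-fold. *Acly*, which makes cytosolic acetyl-CoA from citrate, had values of 142.9 and 161.7 (ratio 1.13 [1.09 to 1.17]). *Acaca*, the acetyl-CoA carboxylase of the cytosol, had values of 18.5 and 33.9 (ratio 1.83 [1.67 to 2.0]), but 42.8% of its words also occur in the annotated gene *Gm5182*, so its level is uncertain. *Acacb*, the carboxylase at mitochondria whose product restrains fatty acid import, was at 17.1 and 23.2 (ratio 1.36 [1.22 to 1.5]). *Fasn*, the fatty acid synthase, was at 92.5 and 83.5, 1.11-fold lower in the transgenic kidney [1.05 to 1.16]. Of the other genes of fatty acid supply, 1 of 8 compared was past 2-fold higher and none lower. This was *Acss2*, which makes acetyl-CoA from acetate, at 108.5 and 281.9 (ratio 2.60 [2.51 to 2.69]).

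The 4 desaturases were all higher in the transgenic kidney under each of the 4 scalings, with *Fads2* past 2-fold. *Fads2*, the delta-6 desaturase of polyunsaturated fatty acids, had values of 88.3 and 216.7 (3743 and 7177 reads), a ratio of 2.45 [2.36 to 2.55]. *Fads1*, the delta-5 desaturase encoded next to it on chromosome 19, was at 53.2 and 86.2 (ratio 1.62 [1.53 to 1.71]). *Scd1*, which makes oleate from stearate, was at 146.4 and 257.2 (ratio 1.76 [1.70 to 1.81]), and its neighbour *Scd2* at 91.6 and 131.1 (ratio 1.43 [1.37 to 1.5]). None of the 3 elongases was past 2-fold. *Elovl6*, which extends palmitate to stearate, was at 33.6 and 23.3, 1.44-fold lower in the transgenic kidney [1.32 to 1.58]. *Elovl1*, which makes very long saturated chains, was at 96.7 and 89.96 (ratio 0.931 [0.887 to 0.976]), and *Elovl5*, which extends polyunsaturated chains, at 67.3 and 73.1 (ratio 1.09 [1.03 to 1.15]).

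The 6 genes of triglyceride assembly among the 39 all differed by less than 2-fold between the kidneys. Their median log2 difference was -0.07, against 0.01 for all genes. *Gpam*, the mitochondrial acyltransferase of the entry step, was at 140.7 and 167.0, and the terminal acyltransferases *Dgat1* and *Dgat2* were at 24.2 and 25.2 and at 124.6 and 137.7. *Agpat2*, which makes phosphatidic acid, was at 26.1 and 17.6, 1.48-fold lower [1.34 to 1.64]. The phosphatidate phosphatases *Lpin1* (89.7 and 73.7) and *Lpin2* (99.0 and 86.0) were 1.22-fold [1.16 to 1.28] and 1.15-fold [1.1 to 1.21] lower. Their relative *Lpin3* was at 38.9 and 17.9, 2.18-fold lower [1.98 to 2.40], and was the sole gene past 2-fold among 9 other glycerolipid genes compared. Of those 9, 6 had a positive log2 difference and 3 a negative one, and their median was 0.24.

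**Figure D3:**
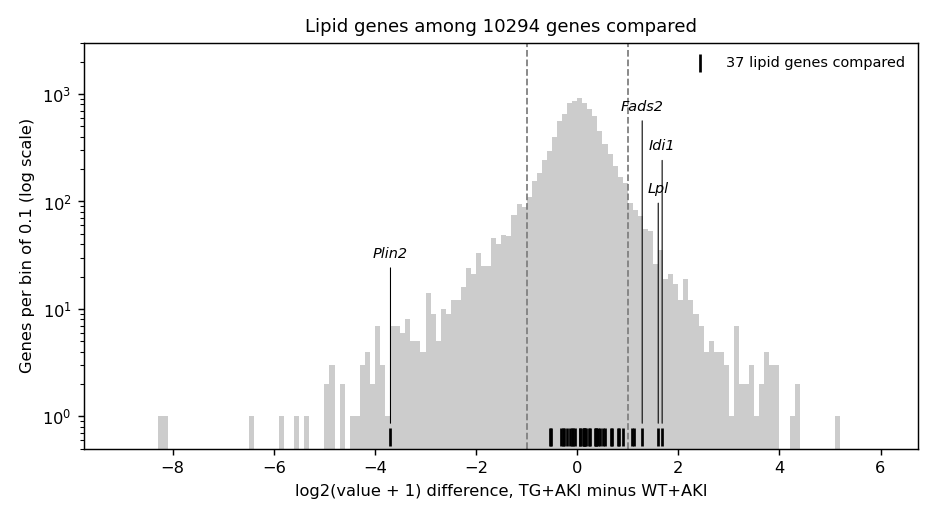
Distribution of log2(value + 1) differences over the 10294 genes compared (grey; y axis, genes per bin of 0.1, log scale), with the 37 lipid genes as ticks at the base and dashed lines at 2-fold. *Plin2* is the sole lipid gene in the lower tail, at -3.69, and *Fads2*, *Lpl* and *Idi1* lie on the upper shoulder.

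The largest difference among the 39 genes was in the lipid droplet coat. *Plin2* (chr4:86626910-86670217), which encodes perilipin 2, the droplet coat protein of most non-fat cells, had values of 883.9 and 67.4, from 37475 and 2233 reads. Its level was 13.1-fold lower in the transgenic kidney [12.6 to 13.7], and the log2 difference of -3.69 ranked 36 from the lowest of the 10294 genes. Per kilobase, *Plin2* was the most abundant of the 39 genes in WT+AKI (468.2) and ranked 8 in TG+AKI (35.7). The 39 genes together took 0.367% and 0.320% of all reads, and without *Plin2* 0.270% and 0.314%, so that gene alone turns the order of the kidneys in this share. *Plin3*, another perilipin, did not share this difference, with values of 58.9 and 57.3 and an interval that included 1 (ratio 0.973 [0.916 to 1.03]). *Pnpla2*, the lipase that starts triglyceride breakdown at the droplet, was at 108.0 and 90.3, 1.2-fold lower [1.14 to 1.25].

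*Lpl* (chr8:68880555-68906932) stood at the opposite end. It encodes lipoprotein lipase, which frees fatty acids from circulating triglyceride at the vessel wall. Its values were 146.9 and 448.4 (6229 and 14848 reads), a ratio of 3.05 [2.96 to 3.14]. *Angptl4*, which encodes a secreted inhibitor of this lipase, was at 223.9 and 56.3, which is 3.98-fold lower [3.78 to 4.18]. *Gpihbp1*, the endothelial anchor of the lipase, named after its values were seen, was under the value of 10 in both kidneys, at 8.16 and 4.65. The lipase transcript and that of its inhibitor therefore differed in opposite directions between these libraries.

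Of the 11 other droplet, lipolysis and uptake genes compared, 2 were past 2-fold lower, *Angptl4* and *Plin4*, and 1 was past 2-fold higher, *Cideb*. *Plin4*, a perilipin, was at 23.5 and 3.38 (995 and 112 reads), which is 6.94-fold lower [5.70 to 8.51]. *Cideb*, which serves droplets and lipoprotein assembly, was at 43.4 and 114.1 (ratio 2.63 [2.49 to 2.78]). *Cidec*, *Hilpda* and *Plin5* are among the 5 genes of this list that stayed under 10 in both libraries and were not compared, and are named after their values were seen. *Cidec*, which fuses droplets, was at 5.66 and 0.181 (240 and 6 reads), 31.2-fold lower in the transgenic kidney [14.1 to 86.0]. *Hilpda*, which inhibits the lipase encoded by *Pnpla2*, was at 7.36 and 1.48, which is 4.97-fold lower [3.67 to 6.87]. *Plin5*, another perilipin under 10, had values of 5.85 and 4.86 with an interval that included 1 (ratio 0.831 [0.677 to 1.02]). *Cd36*, a fatty acid uptake receptor also named after its values were seen, was at 340.0 and 451.0 (ratio 1.33 [1.3 to 1.36]).

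**Figure D4:**
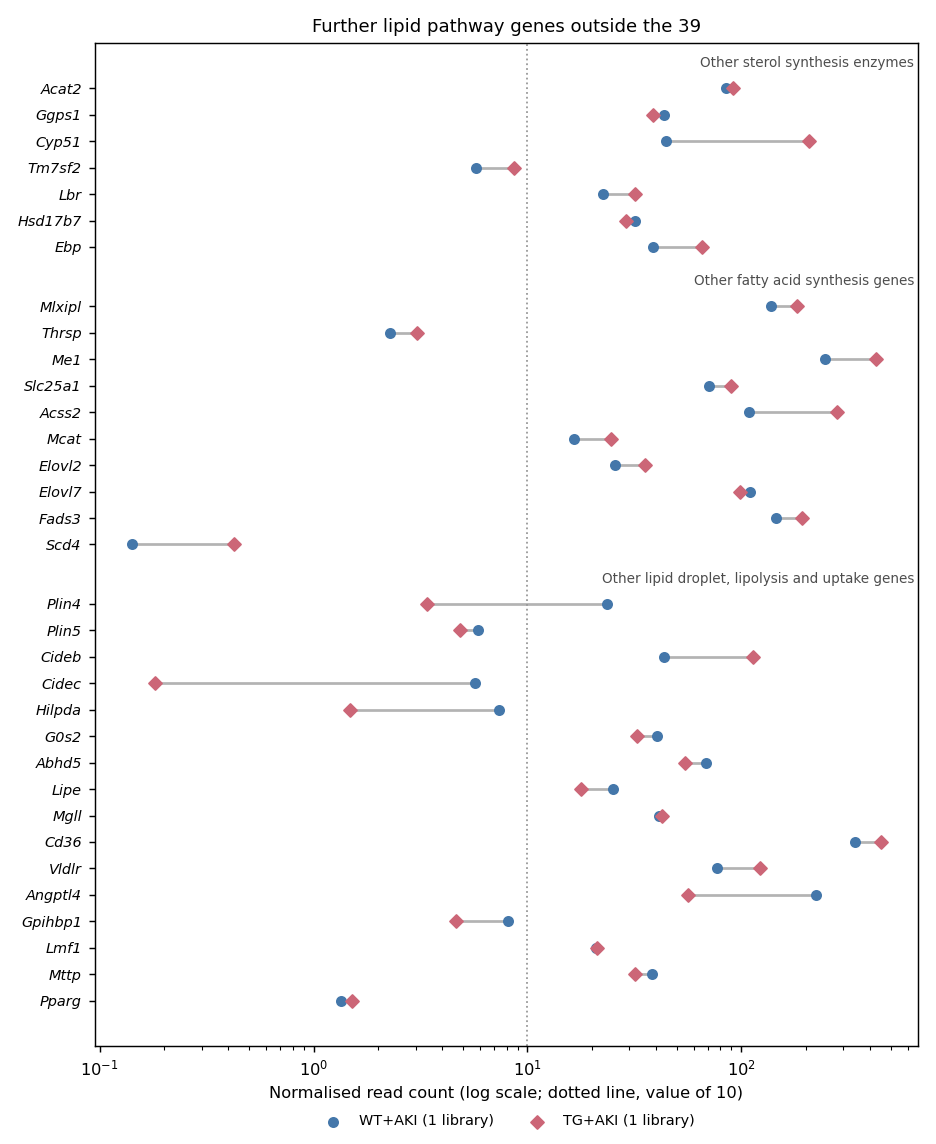
Normalised read counts (x axis, log scale) of selected sterol, fatty acid and droplet genes outside the 39 (y axis), with a circle for WT+AKI and a diamond for TG+AKI and a dotted line at the value of 10. *Cyp51* and *Acss2* are higher in TG+AKI, and *Plin4*, *Cidec*, *Hilpda* and *Angptl4* are lower.

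Tissues next to the kidney that are rich in these transcripts were checked through their markers. Of 9 fat cell markers, *Adipoq*, *Lep*, *Retn*, *Cfd*, *Plin1* and *Ucp1* were not analysed here. The other 3 were *Fabp4* (49.3 and 36.9), *Lipe* (25.03 and 17.8) and *Cidec*, and they are not specific to fat in an injured kidney. Their sum was 79.98 and 54.8, which is 1.46-fold lower in the transgenic kidney. Of 7 markers of the adrenal cortex, which makes steroids from cholesterol, 6 were not analysed here and *Star* was at 2.15 and 1.45. All 7 hepatocyte markers had a row, with sums of 292.6 and 1565, of which *Cyp2e1*, also a kidney gene, made up 129.9 and 1422, while albumin (*Alb*) was at 0.802 and 8.27. Of the 5 hepatocyte markers compared, 2 were past 2-fold higher, *Cyp2e1* and *Ttr* (22.8 and 75.5). Another 2 were past 2-fold lower, *Fgb* (47.8 and 2.84) and *Apoc3* (21.5 and 8.15). The part of fat, adrenal or liver RNA in these differences was not tested.

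**Figure D5:**
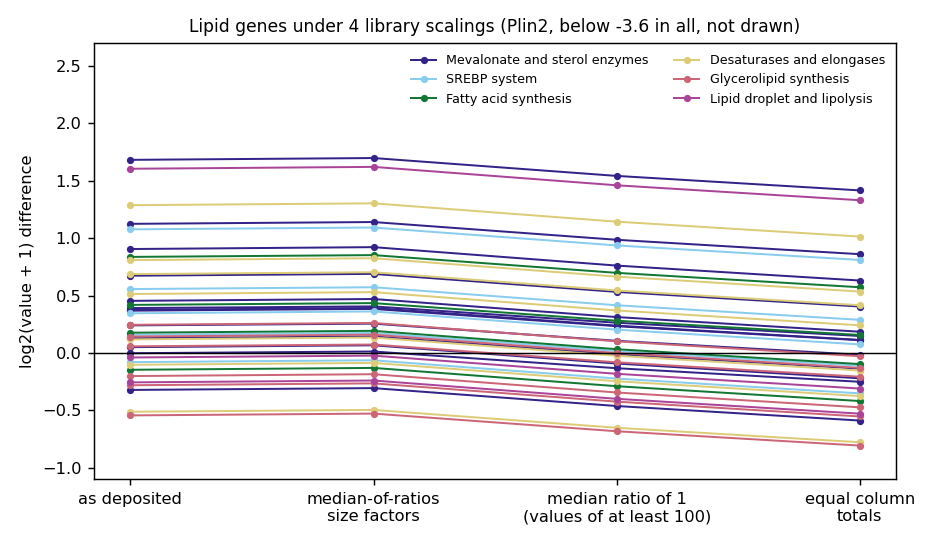
Log2(value + 1) difference (y axis) of 38 of the 39 genes (*Plin2*, far below, is not drawn) under the deposited scaling and 3 other library scalings (x axis), coloured by role, with a line for each gene. Every line shifts by nearly the same step, and 10 genes (*Pmvk* among them) cross 0, while *Idi1*, *Lpl* and *Fads2* stay above 1 throughout.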

How the data were processed

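Stranded mRNA libraries (TruSeq) were sequenced from the left kidney of 1 mouse per group (the labels say whole kidneys), WT+AKI and TG+AKI. Per the study's methods, the authors aligned reads with STAR 2.7.3a, counted them with HTSeq and normalized them with DESeq2, and the submitters' processing notes also name mm10, edgeR, Cufflinks 2.2.1 and FastQC, while the annotation and the strand setting are not given in the sources used here. The deposited values are a normalized signal, each gene's reads divided by 1 factor for the library. The columns sum near 1000000, as counts scaled to a fixed total would, whereas median-of-ratios size factors of these reads are 1.14 and 0.879, so the values are not reads divided by such factors alone. All values (100%, within 0.01 of a read) were whole multiples of the value of 1 read in their column, so whole reads were recovered. In WT+AKI 1 read was worth 0.0236, and 0.0302 in TG+AKI, so that 10 stands for 424.0 and 331.2 reads.

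From these files the ratio of values, its 95% Clopper-Pearson interval and the log2(value + 1) difference were computed, and 10294 genes that reached 10 in either library were compared. This scale understates differences of low genes. With 1 library per group no test of the conditions was made. An exact conditional binomial test on the recovered reads with Benjamini-Hochberg adjustment, which compares the 2 libraries and not the conditions, called 8291 of 10294 genes (80.5%) and 33 of the 37 lipid genes compared at an adjusted p under 0.05. The intervals cover counting error only, since each group is 1 library. Sequencing reads carry no molecular identifiers, so copies of 1 molecule may have been counted more than once. The intervals may then be too narrow even for counting error.

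The 39 genes and the lists of roles, pathway genes and markers were chosen with earlier results of these data known. The genes named were the 39, *Inmt*, *Cyp51*, up to 3 genes past 2-fold in each direction in each pathway list, and leading markers, and other names are said to be chosen after their values were seen. Some genes that the rule names are not reported here. Levels per kilobase and shared 100-base words used the longest coding transcript of GENCODE M21, and coordinates and promoters are from RefSeq (GRCm38.p6). No promoter window was matched for *Fdps*, *Fdft1*, *Sqle*, *Scd1*, *Scd2*, *Fads1*, *Dgat1*, *Dgat2* and *Lpl*. Alternatives were pseudocounts of 0.1 and 10, filters of 0 and 50 and 3 other scalings. The calls and intervals were tested on simulated reads with counting error only, so that check says nothing about variation between mice. Python 3.11.15, numpy 2.4.6, scipy 1.17.1, pandas 2.3.3 and matplotlib 3.10.9 were used.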

Additional observations from a re-analysis of the deposited data

How the results depend on the processing

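With 1 library per group nothing could be left out. No paired analysis was possible because each group has 1 sample. The 5 lipid genes past 2-fold higher became 3 (*Idi1*, *Lpl* and *Fads2*) under a pseudocount of 10, equal column totals or a median ratio of 1. A filter of 50 left the same 3, among 22 lipid genes compared. *Mvd* and *Insig1*, under 50 in both libraries, were then not compared, and their differences did not change. The count of 1 lower gene, *Plin2*, held under all 7 alternatives. Over the 10294 genes compared, 591 higher and 733 lower became 372 and 408 with a pseudocount of 10, and 369 and 1110 with equal column totals. The filters also change how many genes are compared, so their counts have other totals. A filter of 50 gave 374 higher and 295 lower of 4369 genes. No filter gave 784 higher and 1150 lower of 19829. The share of higher genes among those past 2-fold was 44.6%, 33.9% with a median ratio of 1 and 24.9% at equal column totals.

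The median of the lipid genes, 0.24, became -0.028 at equal column totals, while a median ratio of 1 gave 0.10. That of the other pathway genes, 0.22, was -0.052 and 0.076 in turn, and 0.39 with a filter of 50. Among single lists, equal column totals turned sterol uptake to -0.15 and the other glycerolipid genes to -0.031, and a median ratio of 1 turned sterol uptake to -0.021. Such a scaling moves every gene by nearly the same step. The other droplet list changed sign to 0.41 with a filter of 50, under which fewer genes remain. Median-of-ratios size factors, an alternative chosen after seeing the data, moved none of the 39 genes beyond its counting interval.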
